A study of Mus musculus with 12 samples.

Results

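The genes described are 36 histone lysine and protein arginine methyltransferases and closely related SET-domain proteins of the mouse. They were taken by name: the Ensembl identifiers of the count files were matched, without their version, to GENCODE M21 symbols, the 36 listed symbols were kept, and the Polycomb enzymes were left out. All 36 were among the 52654 genes listed in every file, and all 36 were among the 13340 genes with enough counts to be tested. By the residue they are best known for, 8 were placed with histone H3 lysine 4 (H3K4), 6 with H3K36, 7 with H3K9, 1 with H3K79 and 3 with H4K20. A further 6 were arginine methyltransferases, and 5 were SET-domain proteins whose best known substrate is not a histone or is contested.

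RNA was sequenced from MC3T3-E1 subclone 14, a preosteoblast line from mouse calvaria, on day 7. All cultures were kept in osteogenic medium, whose additives were ascorbic acid at 5 µg/mL and β-glycerophosphate at 7 mM. There were 4 groups of 3 libraries: co-culture on titanium discs with nanotopography, co-culture on control titanium, isolated cells on nanotopography and isolated cells on control titanium. In co-culture, osteoclasts derived from the RAW 264.7 line with 50 ng/mL RANKL sat on inserts with 0.4 µm pores above the osteoblasts for the last 2 days, after 5 days apart, so the cell types shared medium and did not touch. Isolated cells had neither osteoclasts, RANKL nor an insert, and the effects of these 3 cannot be told apart. All libraries came from 1 subclone, and the design text calls the 3 of a group biological triplicates without saying how the cultures were separated, so p-values measure the spread between these libraries.

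Histone lysine methyltransferases place methyl groups on their target residues, most through a SET domain, with S-adenosylmethionine as the donor. Methylated H3K4 marks promoters and enhancers, methylated H3K36 and H3K79 mark the bodies of transcribed genes, methylated H3K9 marks silenced chromatin, and H4K20 methylation is tied to the cell cycle and chromatin compaction. Arginine methyltransferases (PRMTs) modify histones and many other proteins, among them splicing factors. In bone, several of these enzymes are known as regulators of osteoblast differentiation, and loss of a copy of NSD1 in humans causes Sotos syndrome, an overgrowth disorder.

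Upstream sequences are shown for 4 genes so that the letters stand beside the differences reported below. The 4 are those that were higher in co-culture than in isolated cells on nanotopography, had a larger co-culture difference there than on control titanium, and had a RefSeq start within 100 bases of the GENCODE start. Of 6 genes that met the first 2 conditions, Kmt2e and Setd5 did not meet the last. Each sequence is the 250 bases upstream of the start, 5′ to 3′ on the strand of the gene, from RefSeq on GRCm38.p6. The region of Kmt2c is chr5:25498784-25499033 on the minus strand, that of Setd2 chr9:110532347-110532596 on the plus strand, that of Kmt5a chr5:124439680-124439929 on the plus strand and that of Kmt5b chr19:3767171-3767420 on the plus strand. Capitals mark GGGCGG (the GC box) and CCAAT (the CCAAT box) on either strand.
Kmt2c: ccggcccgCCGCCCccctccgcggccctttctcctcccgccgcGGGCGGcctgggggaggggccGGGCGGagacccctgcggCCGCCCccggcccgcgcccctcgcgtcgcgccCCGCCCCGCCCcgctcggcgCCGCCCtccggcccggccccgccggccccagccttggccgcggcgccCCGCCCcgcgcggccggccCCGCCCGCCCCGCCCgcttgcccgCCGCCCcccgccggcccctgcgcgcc
Setd2: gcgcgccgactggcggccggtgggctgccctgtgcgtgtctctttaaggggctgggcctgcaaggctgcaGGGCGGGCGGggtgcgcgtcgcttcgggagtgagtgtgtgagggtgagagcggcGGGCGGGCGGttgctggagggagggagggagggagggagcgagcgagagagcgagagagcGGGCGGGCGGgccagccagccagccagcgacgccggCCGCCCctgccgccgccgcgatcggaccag
Kmt5a: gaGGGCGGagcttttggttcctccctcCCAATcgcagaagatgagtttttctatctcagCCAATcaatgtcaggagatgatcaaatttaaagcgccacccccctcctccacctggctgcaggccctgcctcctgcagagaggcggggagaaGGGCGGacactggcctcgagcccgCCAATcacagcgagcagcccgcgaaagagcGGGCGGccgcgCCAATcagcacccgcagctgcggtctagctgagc
Kmt5b: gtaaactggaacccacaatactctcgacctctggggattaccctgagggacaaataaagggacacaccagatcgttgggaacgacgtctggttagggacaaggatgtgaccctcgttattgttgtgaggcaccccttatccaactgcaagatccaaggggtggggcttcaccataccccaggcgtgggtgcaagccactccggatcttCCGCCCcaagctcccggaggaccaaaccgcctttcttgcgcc

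These 4 upstream regions share no single layout. GGGCGG occurred 12 times for Kmt2c, 7 times for Setd2, 3 times for Kmt5a and once for Kmt5b, counting overlapping copies and both strands. CCAAT was found 4 times upstream of Kmt5a and in none of the other 3. Of the other motifs searched on both strands, none of the 4 regions held the ETS core CCGGAAG or the E-box CACGTG. Likewise none held the cyclic AMP element TGACGTCA or the TATA box TATAAA. The regions also ranged widely in GC content, at 91.6% for Kmt2c, 76% for Setd2, 62% for Kmt5a and 56.4% for Kmt5b. Of the 36 genes, 26 had a RefSeq entry: GGGCGG stood in 69.2% of those and in 32.9% of 27025 promoters of the same length, and CCAAT in 38.5% and 34.5%.

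Totals of the genes used ran between 5866842 and 9207831 counts per library. All 12 osteoblast markers were detected in every group, with sums of 57714 to 71751 CPM (counts per 1000000 counts of the library, for these sums without further scaling) in co-culture on nanotopography and 93211 to 106296 CPM in co-culture on control titanium. They were 105627 to 110391 in isolated cells on nanotopography and 104933 to 116469 in isolated cells on control titanium. Col1a1, Col1a2, Sparc and Ibsp made up most of each sum, and the markers did not all move alike. On nanotopography Spp1 averaged 454 CPM in co-culture and 133 CPM in isolated cells, Phex 10.1 and 6.22 and Runx2 341 and 336. Every other osteoblast marker had a lower mean in co-culture there. Of 15 macrophage and osteoclast markers, the 13 other than Ctsk and Mmp9 summed to 11.3 to 34.4 CPM in co-culture on nanotopography, 4.13 to 8.42 in co-culture on control titanium, 3.82 to 4.56 in isolated cells on nanotopography and 3.07 to 6.44 in isolated cells on control titanium. With Ctsk and Mmp9 all 15 summed to 180 to 249, 190 to 205, 182 to 200 and 191 to 200 CPM in the same order, ranges that overlap. On nanotopography Ctsk averaged 183 CPM in co-culture and 167 CPM in isolated cells, and Mmp9 15.6 and 22.5 CPM. Of the 15, the number at 0 was 1 (Calcr), 4, 7 and 8 in the same order, with Adgre1 and Itgam at 0 in all groups but co-culture on nanotopography. The part of such transcripts in the results below was not tested. Mitochondrial ribosomal RNA (mt-Rnr1 and mt-Rnr2) took 8.66% to 15.8% of counts in co-culture on nanotopography and 4.52% to 9.80% in the other groups. The predicted genes Gm26917 and Gm42418 took 0.35% to 0.80% in co-culture on nanotopography, 1.52% to 2.08% in co-culture on control titanium, 3.66% to 8.33% in isolated cells on nanotopography and 2.77% to 5.46% in isolated cells on control titanium. Without the mitochondrial genes and these 2, the unadjusted fit still called each of the genes described below as called in both fits. In RNA from whole cultures, fewer cells of a type and less RNA per cell cannot be told apart.

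Fold changes across all genes followed the GC content of the transcripts wherever nanotopography was compared. For co-culture against isolated cells on nanotopography, the median was 1.08 on the log2 scale over the 884 tested genes with less than 40% GC, and -1.31 over the 549 with more than 60%. Every result is therefore given from a pair of edgeR fits: unadjusted, and GC-adjusted, in which each library's trend with transcript GC content and length was removed. A gene is called at a Benjamini-Hochberg adjusted p below 0.05 over the 13340 tested genes, and the genes called in both fits with the same direction come first. The 36 genes had transcripts of 41.4% to 60.8% GC, with a median of 50.3% against 49.4% for all tested genes. Their transcripts were long, with a median of 6041.5 bases against 2923. Over the 36 genes, the Spearman correlation of GC content with the unadjusted log2 fold change on nanotopography was -0.82 and on control titanium 0.16 for the co-culture comparison, and GC-adjusted it was 0.12 and 0.14. These correlations describe genes measured in the same libraries.

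**Figure D1:**
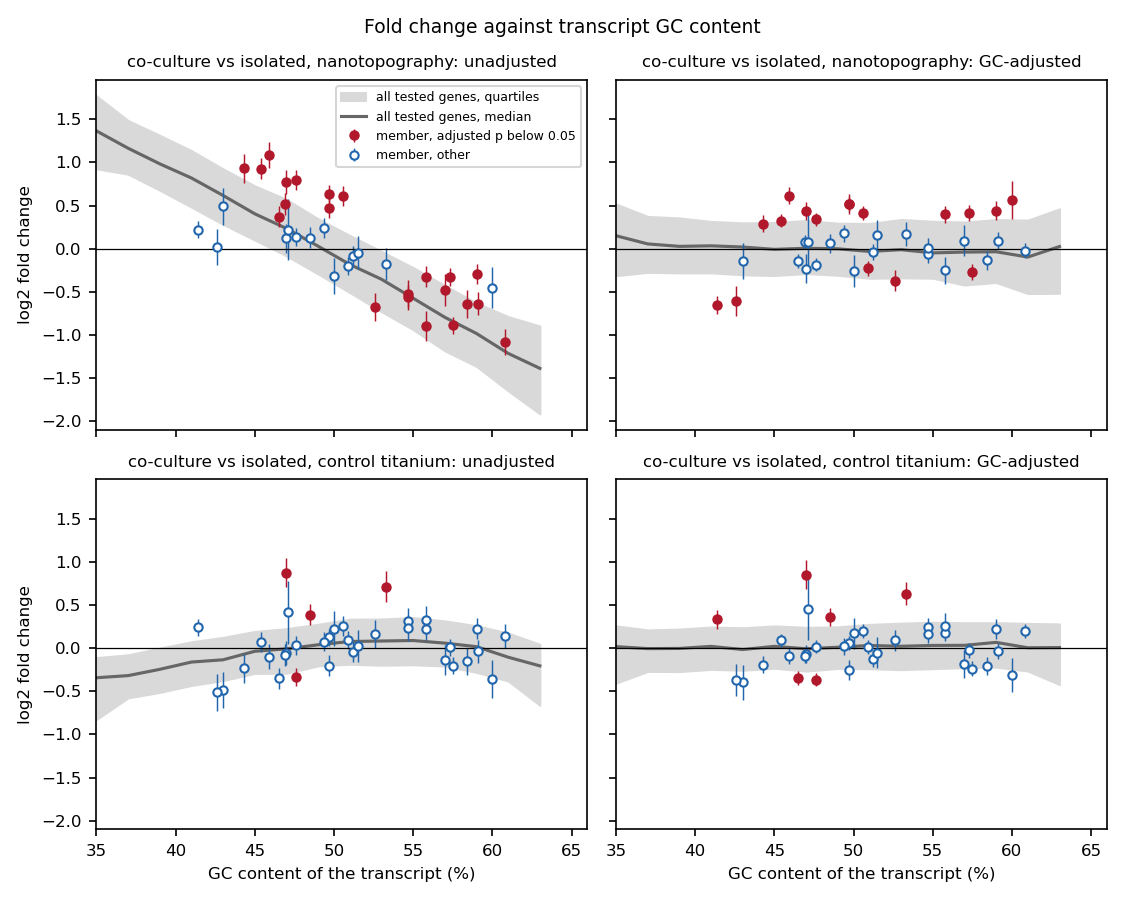
log2 fold change of co-culture against isolated cells (y axis) against GC content of the transcript in percent (x axis), on nanotopography (top) and control titanium (bottom), unadjusted (left) and GC-adjusted (right). Points are the 36 genes with SE, red where called, and the line and band are the median and quartiles of all tested genes; the unadjusted values on nanotopography slope down with GC content (Spearman correlation -0.82 over the 36 genes), and over the 36 genes that correlation was 0.12 to 0.16 in the other 3 panels.

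The enzymes differed widely in level. In isolated cells on control titanium, levels per kilobase of transcript ranged between 1.09 ± 0.31 CPM per kb for Setmar, whose SET domain is fused to a transposase in primates, and 57.5 ± 4.4 CPM per kb for Setd5 (SD, n = 3). Behind Setd5 came Smyd2, a lysine methyltransferase of p53 and other proteins, at 40.7 ± 4.2 CPM per kb and Ehmt2 (G9a), which methylates H3K9, at 39.2 ± 4.9 CPM per kb. Kmt5a, the H4K20 monomethyltransferase, had 36.7 ± 3.1 CPM per kb and Kmt2e had 28.4 ± 4.4 CPM per kb. At the low end stood Suv39h2, an H3K9 methyltransferase of heterochromatin, with 1.51 ± 0.13 CPM per kb, Smyd3 with 1.69 ± 0.47 CPM per kb and Setd1a with 1.78 ± 0.13 CPM per kb. Most neighbours in this order could not be separated: in 6 of 35 neighbouring pairs all 3 libraries of the higher gene lay above all 3 of the next. Setd5 stood clear of Smyd2, and Kmt5a clear of Kmt2e.

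Within families the levels were uneven. Among the 6 KMT2 and SETD1 catalytic subunits of H3K4 complexes, levels in isolated cells on control titanium ran from 1.78 ± 0.13 CPM per kb for Setd1a to 13.6 ± 1.3 CPM per kb for Kmt2c. Among the NSD enzymes, which dimethylate H3K36, Nsd2 had 15.9 ± 0.7 CPM per kb, Nsd3 14.0 ± 2.1 CPM per kb and Nsd1 8.76 ± 0.51 CPM per kb. The arginine methyltransferases were led by Carm1 at 22.8 ± 0.6 CPM per kb and Prmt1, the main enzyme of asymmetric arginine dimethylation, at 22.0 ± 2.0 CPM per kb, and Prmt6 was lowest at 2.29 ± 0.25 CPM per kb. Of the 36 genes, 17 share exon bases with another annotated gene, 13 of them 0.3% to 14.6% of their bases and 4 at least 20%. Of the 4, Setd1a had 51.8% of its exon bases in Gm49388 on the same strand. On the opposite strand, 30% of Smyd2, 23.4% of Prmt6 and 21.1% of Carm1 exon bases were shared, and whether counting used the strand is not given in the sources used here.

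**Figure D2:**
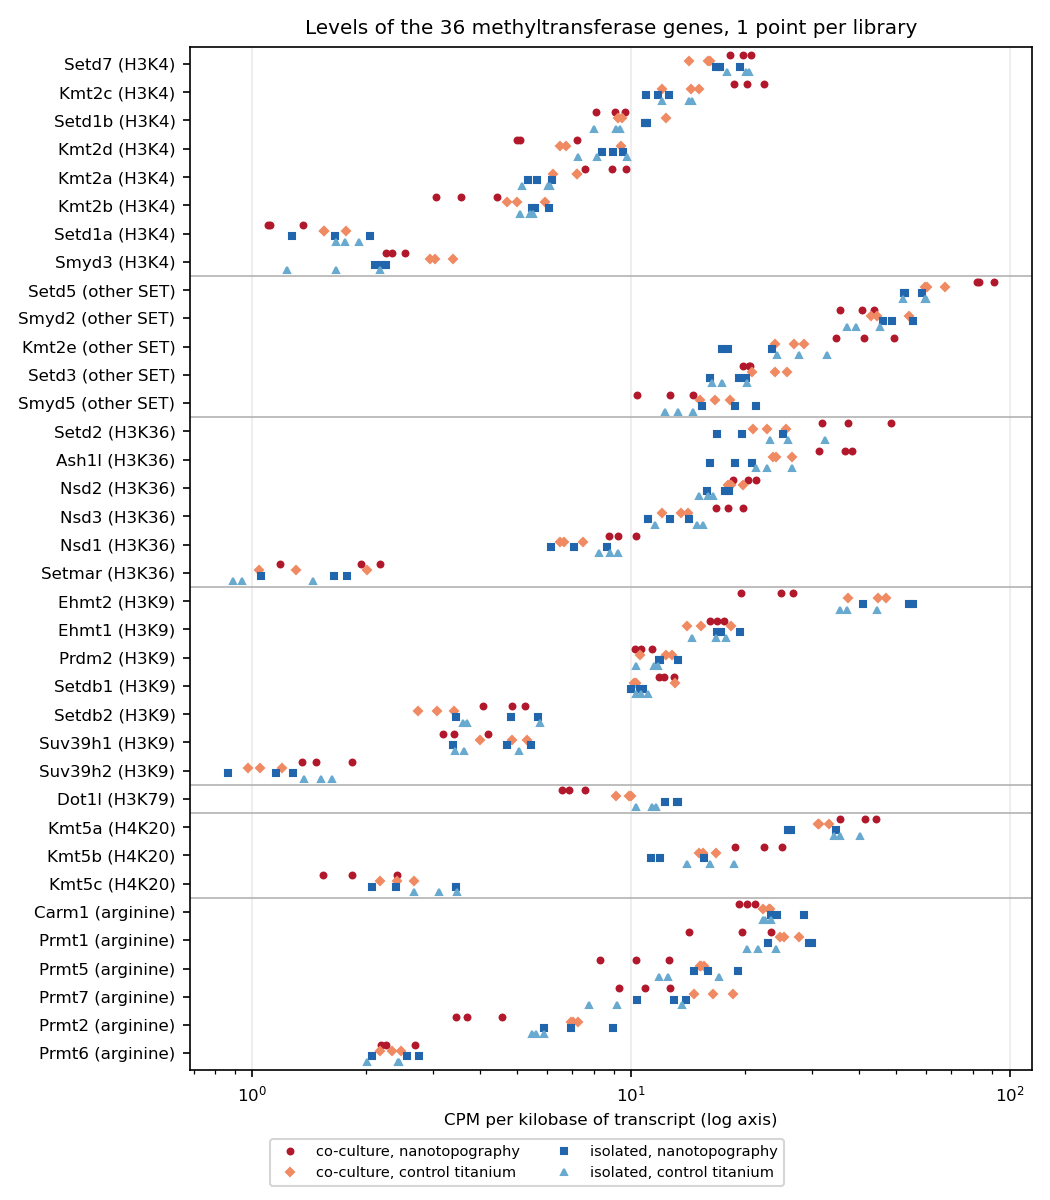
CPM per kilobase of transcript (log x axis) of the 36 genes, grouped by residue and ordered within a group by level in isolated cells on control titanium, with 1 point per library and a colour and shape per group. Setd5 has the highest mean in every group, and Setd1a, Suv39h2 and Setmar stay near the low end.

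The first comparison asked how co-culture with osteoclasts changed these genes in cells on nanotopography. On this surface, 8 of the 36 genes rose and 2 fell in both fits. The risen genes were Kmt2a and Kmt2c of the H3K4 group, Setd2 and Ash1l of the H3K36 group, Kmt5a and Kmt5b of the H4K20 group, and Kmt2e and Setd5, SET proteins for which methyltransferase activity is absent or contested. Dot1l, the H3K79 enzyme, and Prmt5, the main enzyme of symmetric arginine dimethylation, fell. Of all tested genes, 25.9% were called in both fits, against 27.8% of the 36. By direction, 22.2% of the 36 and 11.7% of all tested genes were higher, and 5.56% of the 36 and 14.3% of all tested genes were lower. The unadjusted fit alone called 22 of the 36 (10 higher, 12 lower) against 59.2% of all tested genes (28.7% higher, 30.4% lower). The GC-adjusted fit called 17 (12 higher, 5 lower) against 38.7% (18% higher, 20.8% lower). The median log2 fold change of the 36 was -0.01 unadjusted and 0.07 GC-adjusted, beside 0.00 and -0.01 for all tested genes.

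Both H3K4 genes that rose belong to the MLL family. Kmt2c (MLL3), which monomethylates enhancers, had 336, 280 and 303 CPM in co-culture on nanotopography, against 164, 189 and 176 CPM in isolated cells on nanotopography. Kmt2a (MLL1), known for the control of Hox genes, had 147, 124 and 160 CPM in co-culture and 88.1, 102 and 92.9 CPM in isolated cells. The groups did not overlap for either gene, as for 24 of the 36 in this comparison. The share over all tested genes was not counted. Kmt2c had a log2 fold change of 0.80 (SE 0.11, edgeR adjusted p = 2.07e-05), and GC-adjusted one of 0.34 (adjusted p = 0.0013). Kmt2a had one of 0.61 (SE 0.12, edgeR adjusted p = 0.000296), and GC-adjusted one of 0.42 (adjusted p = 0.000435). Kmt2b, Kmt2d and Setd1a were called lower only in the unadjusted fit, at -0.64, -0.64 and -0.48, and their GC-adjusted values were 0.10, -0.14 and 0.09. Setd1b was called in both fits in opposite directions, at -0.29 (edgeR adjusted p = 0.044) and 0.44 (adjusted p = 0.0049). Setd7 (0.14 and -0.18) and Smyd3 (0.12 and -0.23) were called in neither.

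The 2 SET proteins that rose included the gene with the largest unadjusted log2 fold change of the 36. Kmt2e (MLL5), which binds methylated H3K4 through a PHD finger, had 363, 254 and 302 CPM in co-culture on nanotopography and 127, 172 and 132 CPM in isolated cells on nanotopography. Setd5 had 614, 554 and 559 CPM in co-culture and 356, 397 and 358 CPM in isolated cells. In both genes every co-culture library stood above every isolated one. The log2 fold change of Kmt2e was 1.09 (SE 0.15, edgeR adjusted p = 1.24e-05), or 0.62 GC-adjusted (adjusted p = 5.84e-05). That of Setd5 was 0.64 (SE 0.10, edgeR adjusted p = 4.39e-05), or 0.52 GC-adjusted (adjusted p = 3.67e-05). Kmt2e shares 9.3% of its exon bases with Srpk2 on the opposite strand. Smyd2 was called in opposite directions at -0.32 (edgeR adjusted p = 0.0312) and 0.40 (adjusted p = 0.00212), Smyd5 was called lower only unadjusted (-0.56, GC-adjusted -0.06), and Setd3, which methylates actin, was not called (0.13 and 0.06).

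In the H3K36 group, Setd2, the enzyme of H3K36 trimethylation along transcribed genes, had 406, 267 and 312 CPM in co-culture on nanotopography, against 141, 210 and 164 CPM in isolated cells. Ash1l, an H3K36 dimethyltransferase that counters Polycomb repression, had 448, 365 and 428 CPM in co-culture and 188, 244 and 220 CPM in isolated cells. The co-culture libraries lay above the isolated ones for both. Setd2 had a log2 fold change of 0.93 (SE 0.17, edgeR adjusted p = 0.000159) and GC-adjusted one of 0.29 (adjusted p = 0.0256). Ash1l had one of 0.93 (SE 0.12, edgeR adjusted p = 7.28e-06) and GC-adjusted one of 0.32 (adjusted p = 0.00192). Nsd1 and Nsd3 were called higher only unadjusted, at 0.37 and 0.52, with GC-adjusted values of -0.15 and 0.08. Nsd2, at 41.4% the lowest in GC content of the 36, was called lower only GC-adjusted (0.22 unadjusted, edgeR adjusted p = 0.0616, and -0.65 GC-adjusted, adjusted p = 8.38e-05). Setmar was called in neither (0.22 and 0.07).

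Of the 3 H4K20 enzymes, 2 rose. Kmt5b, which extends the mark that Kmt5a places, had 153, 116 and 137 CPM in co-culture on nanotopography and 69.4, 95.5 and 73.2 CPM in isolated cells. Kmt5a had 122, 97.7 and 114 CPM in co-culture and 71.3, 95.2 and 72.5 CPM in isolated cells. The groups were apart for both genes, for Kmt5a by a narrow gap. Kmt5b had a log2 fold change of 0.77 (SE 0.14, edgeR adjusted p = 0.000169) and GC-adjusted one of 0.43 (adjusted p = 0.00294). Kmt5a had one of 0.48 (SE 0.12, edgeR adjusted p = 0.00314) and GC-adjusted one of 0.52 (adjusted p = 0.0016). Kmt5c, the remaining H4K20 enzyme, had only 4.26, 5.09 and 6.69 CPM in co-culture and 9.60, 5.74 and 6.64 CPM in isolated cells, and was called higher only GC-adjusted (-0.45 unadjusted, edgeR adjusted p = 0.108, and 0.57 GC-adjusted, adjusted p = 0.0458).

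Dot1l fell in this comparison and no H3K9 enzyme was called in both fits. Dot1l had 46.7, 44.9 and 51.4 CPM in co-culture on nanotopography and 90.8, 84.0 and 90.0 CPM in isolated cells, with no overlap. Its log2 fold change was -0.89 (SE 0.10, edgeR adjusted p = 1.97e-06), or -0.27 GC-adjusted (adjusted p = 0.0262). Ehmt2 had 78.5, 108 and 101 CPM in co-culture and 223, 166 and 218 CPM in isolated cells. These values do not overlap either, and the unadjusted log2 fold change was the most negative of the 36, at -1.08 (SE 0.15, edgeR adjusted p = 1.03e-05). Ehmt2 also had the highest GC content of the 36, at 60.8%, and its GC-adjusted value was -0.02 (adjusted p = 0.868). Ehmt1, its partner in the G9a-GLP complex, with 51.2% GC, was called in neither fit. Setdb2 and Prdm2 were called lower only GC-adjusted, at -0.60 and -0.23, and Suv39h1, Suv39h2 and Setdb1 were called in neither.

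Among the arginine methyltransferases, Prmt5 was the 1 of 6 called in both fits. It averaged 27.9 ± 5.8 CPM in co-culture on nanotopography and 44.7 ± 6.2 CPM in isolated cells (SD, n = 3 each), with a log2 fold change of -0.67 (SE 0.16, edgeR adjusted p = 0.00193) and GC-adjusted one of -0.37 (adjusted p = 0.0249). Of 7 tested PRMT cofactors and other PRMT genes, 1 fell in both fits and 6 were not called in both. Clns1a (pICln), a cofactor that brings spliceosomal Sm proteins to PRMT5, fell by 0.53 on the log2 scale (edgeR adjusted p = 0.000428), and GC-adjusted by 0.51 (adjusted p = 0.000197). Carm1, a coactivator of nuclear receptors, was called in opposite directions at -0.33 (edgeR adjusted p = 0.0101) and 0.42 (adjusted p = 0.00113). With Setd1b and Smyd2 that made 3 of the 36 called in opposite directions, and 2.58% of all tested genes were. Prmt1 and Prmt2 were called lower only unadjusted, at -0.52 and -0.90, with GC-adjusted values of 0.01 and -0.25. Prmt6 and Prmt7 were called in neither.

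Call and direction in the unadjusted fit went with GC content. Of the 17 genes under 50% GC, 9 were called higher and 0 lower, and of the 19 with 50% GC or more, 1 was higher and 12 were lower. GC-adjusted, the counts were 7 higher and 2 lower under 50% GC, and 5 higher and 3 lower at 50% or more. The shares called in these GC classes over all tested genes were not counted. Over all tested genes, the Spearman correlation of GC content with the unadjusted log2 fold change of this comparison was -0.74. The trend with GC content was thus not particular to the genes described. Leaving out each of the 12 libraries in turn, 7 of the 10 genes were called in both fits every time. The exceptions, all GC-adjusted, were Setd2 (without co-culture nanotopography replicate 1 or isolated nanotopography replicate 1 or 3), Dot1l (without co-culture nanotopography replicate 2 or 3) and Prmt5 (without co-culture nanotopography replicate 1 or 3 or isolated nanotopography replicate 1). At its weakest Setd2 was 0.18 (edgeR adjusted p = 0.188) and Prmt5 -0.28 (adjusted p = 0.118) without co-culture nanotopography replicate 1, and Dot1l was -0.19 (adjusted p = 0.135) without co-culture nanotopography replicate 2.

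**Figure D3:**
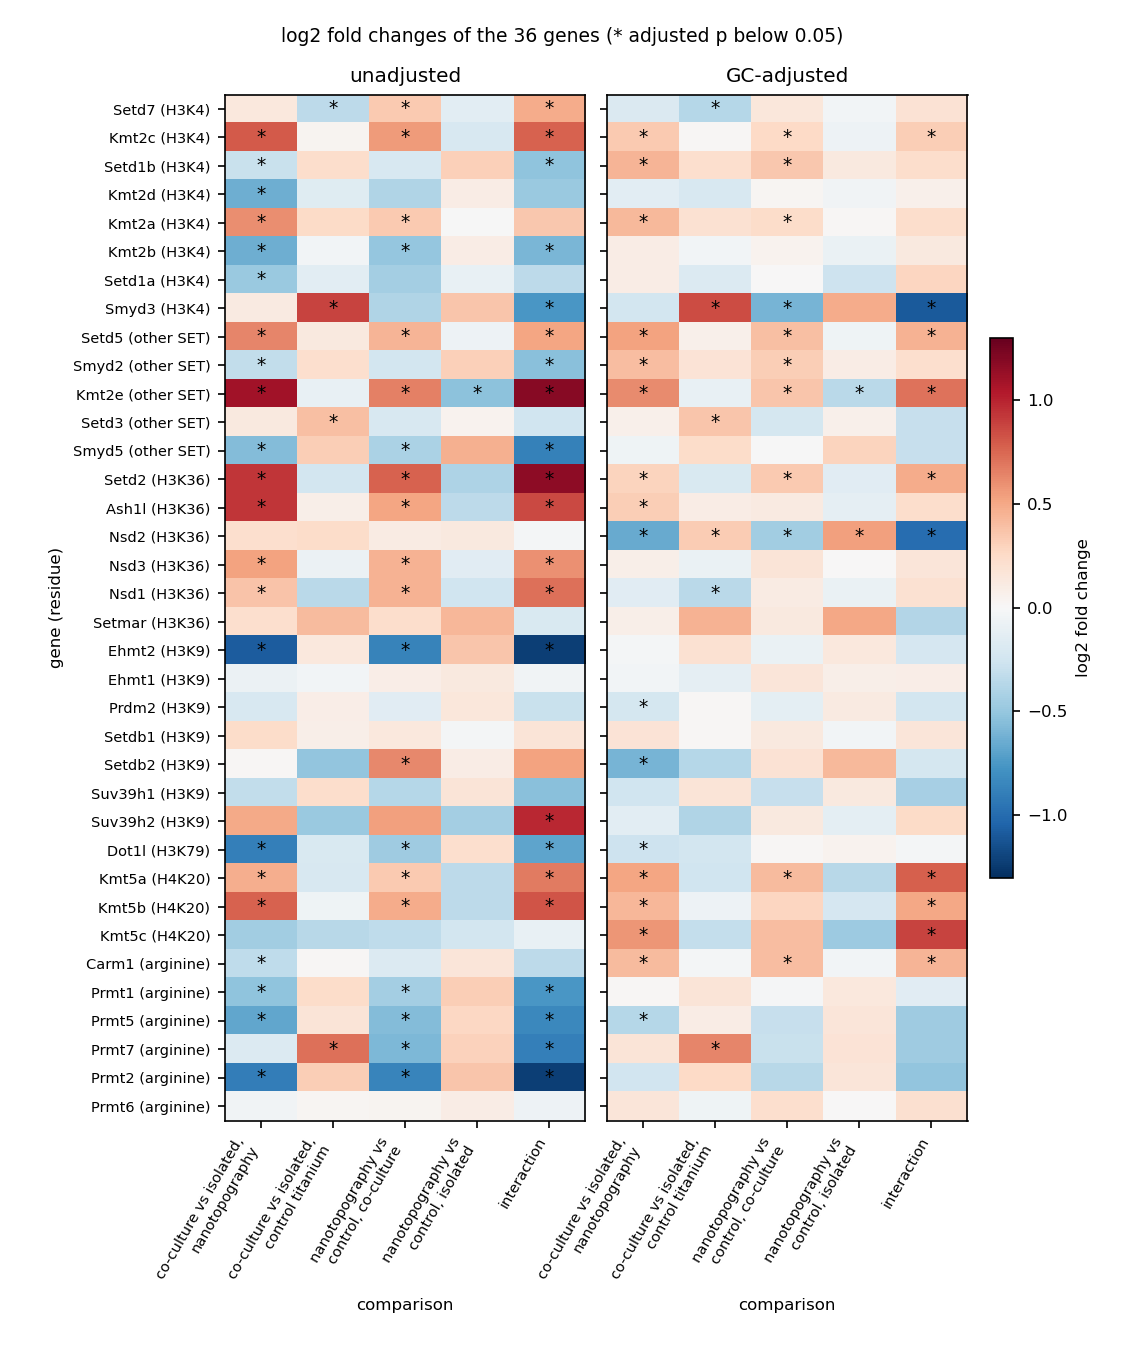
Heat map of log2 fold changes of the 36 genes (rows, grouped by residue) in 5 comparisons (columns), unadjusted (left) and GC-adjusted (right), red for higher, blue for lower, with a star where the edgeR adjusted p was below 0.05. Kmt2a, Kmt2c, Kmt2e, Setd5, Setd2, Ash1l, Kmt5a and Kmt5b are red and starred in the first column of both panels, and Ehmt2 is dark blue on the left (-1.08) and pale on the right (-0.02).

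Partners of these enzymes moved in both directions on nanotopography. Of 12 tested subunits of H3K4 complexes, 2 rose and 3 fell in both fits. Bod1l, a subunit tied to the SETD1 complex, rose to 218 ± 47.8 CPM in co-culture, against 106 ± 31.5 CPM in isolated cells (SD, n = 3 each), with a log2 fold change of 1.04 (edgeR adjusted p = 0.000379) and GC-adjusted one of 0.45 (adjusted p = 0.011). Men1 (menin), which anchors the MLL1 and MLL2 complexes, and Cxxc1, the CpG-binding subunit of SETD1 complexes, fell by 1.19 and 1.14 on the log2 scale, and GC-adjusted by 0.30 and 0.27 (adjusted p = 0.0451 and 0.0331). Of 9 tested partners and readers of H3K79 and H3K36, 2 rose, among them the DOT1L partner Mllt10 (0.58, GC-adjusted 0.23, edgeR adjusted p = 7.49e-05 and 0.0317). None of 10 readers and partners of H3K9 were called the same way in both fits, and 2 were called in opposite directions, among them the heterochromatin protein gene Cbx5 (0.46 and -0.33).

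Of 13 tested genes of methyl donor metabolism, 2 rose and 2 fell in both fits on nanotopography. Ahcyl1, a relative of the enzyme that clears S-adenosylhomocysteine, rose to 513 ± 22.1 CPM in co-culture, against 302 ± 15.0 CPM in isolated cells, a log2 fold change of 0.76 (edgeR adjusted p = 3.96e-06) and of 0.51 GC-adjusted (adjusted p = 3.02e-05). Shmt2, the mitochondrial serine hydroxymethyltransferase that supplies one-carbon units, fell to 33.4 ± 5.7 CPM in co-culture, against 75.8 ± 10.4 CPM in isolated cells, a log2 fold change of -1.18 (edgeR adjusted p = 5.2e-06) and of -0.39 GC-adjusted (adjusted p = 0.00349). Of 9 tested other SET and PRDM genes, 1 rose and 2 fell in both fits. Of 16 genes of S phase and mitosis, none rose and 7 fell in both fits, with a median of -0.49 in each fit. Of all tested genes, 14.3% fell in both fits. The 16 did not all move alike: unadjusted, 4 were called higher and 9 lower. GC-adjusted, 0 were higher and 10 lower, and 2 were called in opposite directions by the fits. The replication helicase subunit Mcm2 fell by 1.15 on the log2 scale (edgeR adjusted p = 8.19e-07, GC-adjusted -0.60, adjusted p = 2.56e-05).

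The same question on control titanium gave fewer calls. There, 3 of the 36 genes rose in co-culture and 1 fell, in both fits: Smyd3, Prmt7 and Setd3 were higher and Setd7 was lower. This was 11.1% of the 36, and 18.8% of all tested genes were called in both fits (10.8% higher, 7.95% lower). The unadjusted fit called these 4, against 19.7% of all tested genes (10.9% higher, 8.72% lower). The GC-adjusted fit called 6, against 27.6% (16% higher, 11.6% lower), adding Nsd2 (0.33, edgeR adjusted p = 0.0247) and Nsd1 (-0.35, adjusted p = 0.00296). The median log2 fold change of the 36 was 0.05 unadjusted and 0.02 GC-adjusted, beside -0.02 and 0.02 for all tested genes.

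Smyd3, a SET and MYND domain protein described as an H3K4 methyltransferase and a methyltransferase of kinases, had 20.2, 20.8 and 23.4 CPM in co-culture on control titanium, against 8.48, 14.9 and 11.4 CPM in isolated cells on control titanium. Prmt7, which places single methyl groups on arginine, had 50.8, 64.6 and 57.1 CPM in co-culture and 26.9, 31.8 and 47.3 CPM in isolated cells. The groups did not overlap for either gene, and isolated control replicate 1 was lowest for both. Smyd3 had a log2 fold change of 0.87 (SE 0.17, edgeR adjusted p = 0.00161), and GC-adjusted one of 0.85 (adjusted p = 0.00064). Prmt7 had one of 0.71 (SE 0.18, edgeR adjusted p = 0.0104), and GC-adjusted one of 0.63 (adjusted p = 0.00174).

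The other 2 genes changed less. Setd3, the actin histidine methyltransferase, had 57.5, 71.0 and 66 CPM in co-culture on control titanium and 45, 47.9 and 55.9 CPM in isolated cells. Setd7, a lysine monomethyltransferase of H3K4 and of non-histone proteins, had 120, 105 and 118 CPM in co-culture and 149, 152 and 133 CPM in isolated cells. Again no library of one group reached the other. On this surface the groups did not overlap for 14 of the 36 genes, of which 4 were called unadjusted. The share over all tested genes was not counted. Setd3 had a log2 fold change of 0.39 (SE 0.12, edgeR adjusted p = 0.0299, GC-adjusted 0.36, adjusted p = 0.0148) and Setd7 one of -0.34 (SE 0.10, edgeR adjusted p = 0.0283, GC-adjusted -0.37, adjusted p = 0.00094). Smyd3 was the 1 of the 4 called in both fits whichever library was left out. The number called in both was 1 without co-culture control replicate 2, isolated control replicate 1 or isolated control replicate 2, and 2 without co-culture control replicate 3. The share of all tested genes called, unadjusted, was then lower too, at 12%, 10.9%, 10.6% and 15.8% in that order, against 19.7% with all libraries. Unadjusted, Prmt7 was then as weak as 0.64 (adjusted p = 0.0607, without isolated control replicate 2), Setd3 0.33 (adjusted p = 0.13, without isolated control replicate 1) and Setd7 -0.27 (adjusted p = 0.146, without co-culture control replicate 2). The call for Setd3 was also lost with upper-quartile scaling (0.34, adjusted p = 0.0509) and without the low-count filter (0.37, adjusted p = 0.0577).

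On control titanium the H3K4 complex subunits and methyl donor genes called in both fits were all higher in co-culture; the unadjusted fit alone also called 1 methyl donor gene lower. Of 12 tested subunits of H3K4 complexes, 3 rose and none fell: Wdr5 and Ash2l, both of the core shared by all KMT2 complexes, at 0.45 and 0.43 (edgeR adjusted p = 0.0314 and 0.0337), and Hcfc1 at 0.35 (adjusted p = 0.0483). Of 13 tested genes of methyl donor metabolism, 4 rose and none fell in both fits, among them Ahcyl1 at 0.42 (edgeR adjusted p = 0.00407), Mthfd1 at 0.47 (adjusted p = 0.0162) and Ahcyl2 at 0.40 (adjusted p = 0.0258). Of 10 readers and partners of H3K9, Trim28 (KAP1) and Atf7ip, both partners of SETDB1, rose by 0.51 and 0.36 on the log2 scale and Cbx1 (HP1β) fell by 0.61 (edgeR adjusted p = 0.024, 0.0107 and 0.00972). Setdb1 itself was not called (0.07, GC-adjusted 0.02). Of 16 genes of S phase and mitosis, only Rrm2 was called in both fits, at -0.69 (edgeR adjusted p = 0.0115). None of the 9 tested partners and readers of H3K79 and H3K36, 7 PRMT cofactors and other PRMT genes and 9 other SET and PRDM genes were called in both fits on this surface.

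**Figure D4:**
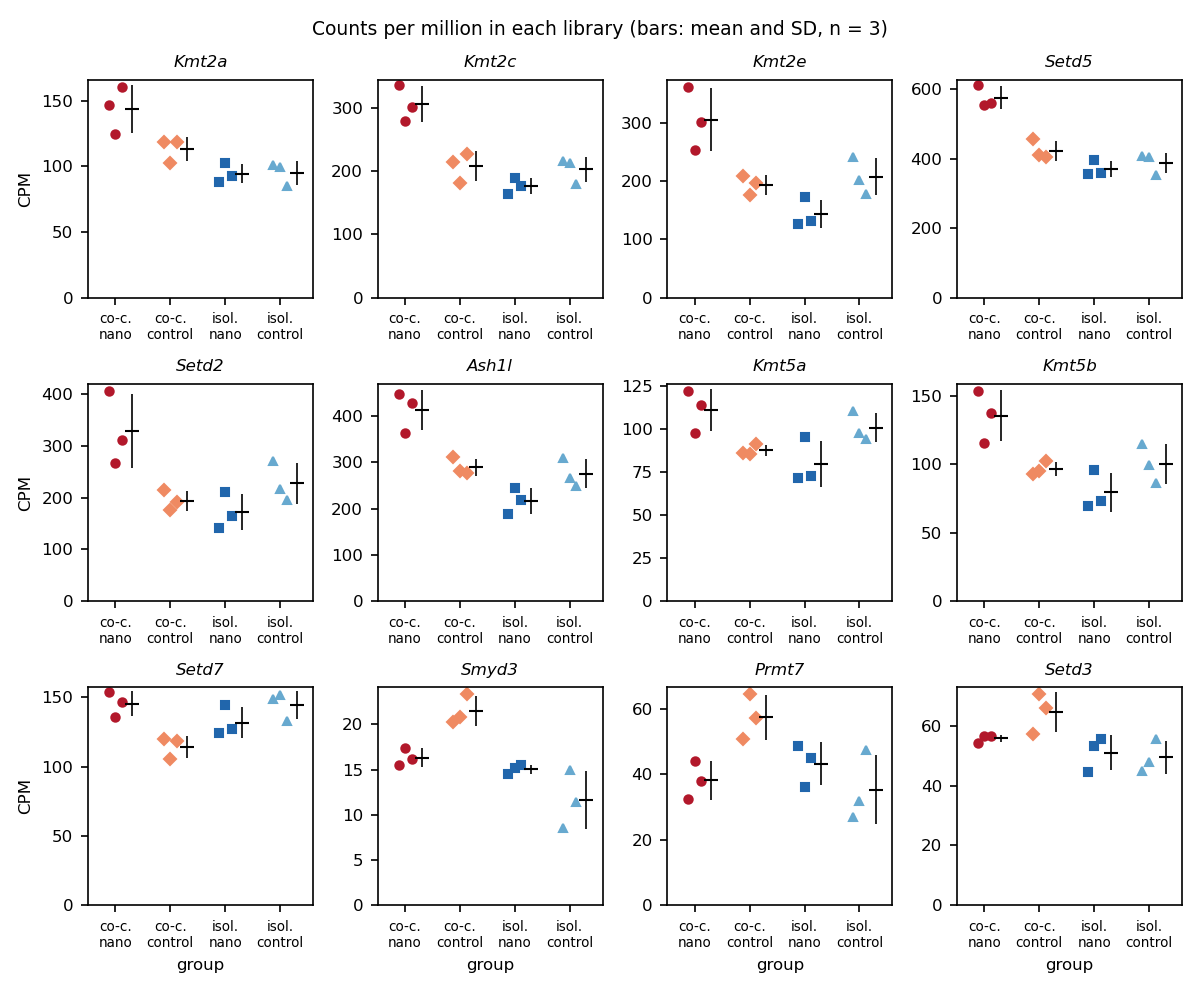
CPM (y axis, starting at 0) of 12 genes in each of the 12 libraries, by group (x axis; co-c., co-culture; isol., isolated), with the mean and SD of the 3 libraries beside the points. CPM is not GC-adjusted. For Kmt2a, Kmt2c, Kmt2e, Setd5, Setd2, Ash1l, Kmt5a and Kmt5b the co-culture libraries on nanotopography stand above the co-culture libraries on control titanium and the isolated ones on nanotopography. For Setd2 and Kmt5a the lowest of them (267 and 97.7 CPM) is below the highest isolated library on control titanium (271 and 110 CPM). For Smyd3, Prmt7 and Setd3 the co-culture libraries on control titanium stand highest.

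The interaction term asked whether the co-culture difference itself differed between the surfaces. In both fits 6 of the 36 genes had a larger log2 fold change on nanotopography than on control titanium, and 1 had a smaller one. The 6 were Kmt2e, Setd2, Kmt2c, Setd5, Kmt5a and Kmt5b, and the 1 was Smyd3. The 7 genes are 19.4% of the 36, and 13.3% of all tested genes were called in both fits. By direction, 16.7% of the 36 and 4.63% of all tested genes had a larger value on nanotopography, and 2.78% and 8.64% a smaller one. The unadjusted fit called 22 (11 larger, 11 smaller) against 47.8% of all tested genes (22.4% and 25.4%), and the GC-adjusted fit 10 (8 and 2) against 20.5% (7.35% and 13.1%). The interaction uses the same 12 libraries as the other comparisons, so its values are not independent of theirs.

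Kmt2e and Setd2 had the largest unadjusted interactions of the 6. The term was 1.19 for Kmt2e (SE 0.21, edgeR adjusted p = 0.000442), or 0.71 GC-adjusted (adjusted p = 0.00178). On control titanium Kmt2e had 210, 176 and 197 CPM in co-culture and 242, 203 and 178 CPM in isolated cells, groups that overlapped. Setd2 had a term of 1.17 (SE 0.23, edgeR adjusted p = 0.000972), or 0.48 GC-adjusted (adjusted p = 0.0202). Its libraries overlapped on control titanium too, with 214, 175 and 191 CPM in co-culture and 271, 217 and 195 CPM in isolated cells. The log2 fold change of Setd2 there, -0.23, was not called.

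Kmt2c and Setd5 also overlapped between co-culture and isolated cells on control titanium. Kmt2c had 216, 181 and 227 CPM in co-culture and 217, 213 and 180 CPM in isolated cells, and an interaction of 0.76 (SE 0.16, edgeR adjusted p = 0.00137), or 0.32 GC-adjusted (adjusted p = 0.0367). Setd5 had 457, 410 and 404 CPM in co-culture and 407, 404 and 354 CPM in isolated cells, and an interaction of 0.51 (SE 0.14, edgeR adjusted p = 0.00694), or 0.46 GC-adjusted (adjusted p = 0.0081). The same held for Kmt5b of the H4K20 enzymes. It had 92.6, 94.9 and 103 CPM in co-culture and 115, 99.1 and 86.5 CPM in isolated cells, and an interaction of 0.82 (SE 0.20, edgeR adjusted p = 0.00281), or 0.50 GC-adjusted (adjusted p = 0.0223). Kmt5a had 85.8, 85.4 and 91.3 CPM in co-culture and 110, 97.6 and 94.2 CPM in isolated cells. Its co-culture libraries were below the isolated ones on this surface, though the difference was not called (log2 fold change -0.20, GC-adjusted -0.26). The interaction of Kmt5a was 0.68 (SE 0.17, edgeR adjusted p = 0.00439) and GC-adjusted 0.78 (adjusted p = 0.00319), and among the 6 only this term was larger after the adjustment.

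Smyd3 ran the other way. On nanotopography it had 15.5, 17.4 and 16.1 CPM in co-culture and 14.5, 15.2 and 15.5 CPM in isolated cells, groups that lay close together. The interaction term was -0.75 (SE 0.24, edgeR adjusted p = 0.0165) and GC-adjusted -1.09 (adjusted p = 0.00366). Kmt2a and Ash1l, which rose on nanotopography, had interaction terms called in at most 1 fit: Ash1l had 0.86 (edgeR adjusted p = 0.000857) and GC-adjusted 0.23 (adjusted p = 0.128), and Kmt2a was called in neither. Nsd2 was called only GC-adjusted, with -0.02 unadjusted (edgeR adjusted p = 0.912) and -0.99 GC-adjusted (adjusted p = 0.00031). Kmt2e, Setd5, Kmt5a and Smyd3 were called in both fits whichever library was left out. The number called in both was 4 without co-culture nanotopography replicate 1, isolated control replicate 1 or isolated nanotopography replicate 1, and the GC-adjusted count of 10 was 5 without either of the first 2 and 6 without isolated nanotopography replicate 3. The GC-adjusted share of all tested genes was then 13.1%, 12.8% and 12.7%, against 20.5% with all libraries. GC-adjusted, Setd2 was then 0.37 (edgeR adjusted p = 0.0709) and Kmt2c 0.29 (adjusted p = 0.0991) without co-culture nanotopography replicate 1, and Kmt5b was 0.41 (adjusted p = 0.0757) without isolated control replicate 1.

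**Figure D5:**
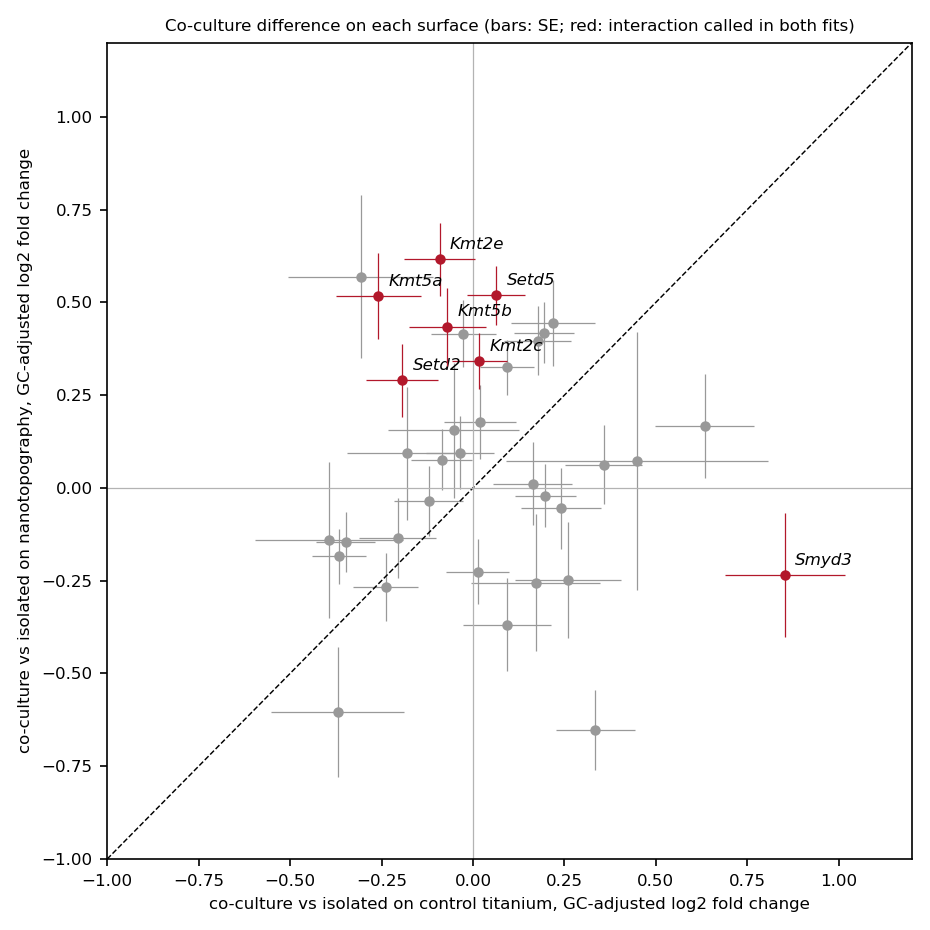
GC-adjusted log2 fold change of co-culture against isolated cells on nanotopography (y axis) against that on control titanium (x axis), 1 point per gene with SE bars, the dashed line marking equal values. Genes whose interaction was called in both fits are red and named: 6 lie above the line and Smyd3 lies below it, with 0.85 on control titanium and -0.23 on nanotopography.

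Of the partner lists, few genes had an interaction called in both fits. Bod1l had 1.23 (edgeR adjusted p = 0.00255, GC-adjusted 0.63, adjusted p = 0.0249), the 1 of 12 tested H3K4 complex subunits. In methyl donor metabolism 3 of 13 were called, all smaller on nanotopography: Shmt2 at -1.61 (edgeR adjusted p = 7.27e-05, GC-adjusted -0.79), Mthfd1 at -0.92 (adjusted p = 0.000873, GC-adjusted -0.55) and Nnmt, which consumes S-adenosylmethionine, at -1.11 (adjusted p = 0.00606, GC-adjusted -0.78). Clns1a was the 1 of 7 tested PRMT cofactors and other PRMT genes, at -0.46 (edgeR adjusted p = 0.0185, GC-adjusted -0.45, adjusted p = 0.0208). Of the other lists, 1 of 10 readers and partners of H3K9 had a larger value on nanotopography, 1 of 9 other SET and PRDM genes and 2 of 16 genes of S phase and mitosis had smaller ones, and none of 9 partners and readers of H3K79 and H3K36 were called in both fits.

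The surfaces were then compared in co-culture. Here 6 of the 36 genes were higher on nanotopography in both fits and none were lower: Kmt2a, Kmt2c, Kmt2e, Setd2, Setd5 and Kmt5a. That is 16.7% of the 36, against 11.3% of all tested genes called in both fits (3.82% higher, 7.5% lower). Unadjusted, 20 of the 36 were called (12 higher, 8 lower) against 42% of all tested genes (18.6% higher, 23.3% lower). GC-adjusted, 11 were called (9 higher, 2 lower) against 17.6% (6.83% higher, 10.8% lower). The libraries on nanotopography are those of the first comparison, so these values share them.

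In all 6 genes the 3 libraries on nanotopography lay above the 3 on control titanium. The groups did not overlap for 25 of the 36 genes, among them all 20 called unadjusted. The share without overlap over all tested genes was not counted. The log2 fold change was 0.76 (SE 0.17, edgeR adjusted p = 0.00226, GC-adjusted 0.34) for Setd2 and 0.66 (SE 0.15, edgeR adjusted p = 0.00275, GC-adjusted 0.36) for Kmt2e. These 2 differed most, unadjusted. It was 0.56 (SE 0.11, edgeR adjusted p = 0.00151, GC-adjusted 0.26) for Kmt2c and 0.44 (SE 0.10, edgeR adjusted p = 0.00273, GC-adjusted 0.39) for Setd5, whose libraries had 614, 554 and 559 CPM on nanotopography and 457, 410 and 404 CPM on control titanium. Kmt2a had 147, 124 and 160 CPM on nanotopography and 119, 102 and 119 CPM on control titanium, a log2 fold change of 0.34 (SE 0.12, edgeR adjusted p = 0.0248, GC-adjusted 0.24). Kmt5a also had 0.34 (SE 0.12, edgeR adjusted p = 0.0321, GC-adjusted 0.41). The GC-adjusted edgeR adjusted p of the 6 lay between 0.00229 for Setd5 and 0.0426 for Kmt2a. Setd5 alone was called in both fits in every leave-one-out. The number called in both was 1 without co-culture control replicate 2 or co-culture nanotopography replicate 1, and at their weakest the GC-adjusted values were 0.23 for Setd2 (edgeR adjusted p = 0.161), 0.26 for Kmt2e (0.12) and 0.32 for Kmt5a (0.119) without co-culture nanotopography replicate 1, 0.22 for Kmt2c (0.115) without co-culture control replicate 2 and 0.19 for Kmt2a (0.171) without co-culture nanotopography replicate 3. The number was 3 without co-culture control replicate 1, and 4 without co-culture control replicate 3 or co-culture nanotopography replicate 3. Over all tested genes the GC-adjusted share called was 8.94% without co-culture control replicate 2 and 7.8% without co-culture nanotopography replicate 1, against 17.6% with all libraries.

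Other genes were called in 1 fit. Kmt5b (0.49, GC-adjusted 0.28), Ash1l (0.51 and 0.11), Nsd1 (0.46 and 0.11), Nsd3 (0.45 and 0.17), Setdb2 (0.62 and 0.19) and Setd7 (0.34 and 0.15) were called higher only unadjusted. Ehmt2 (-0.86 and -0.08), Dot1l (-0.47 and 0.02), Kmt2b (-0.50 and 0.04), Smyd5 (-0.41 and -0.00), and the arginine methyltransferases Prmt1 (-0.44 and -0.02), Prmt2 (-0.86 and -0.36), Prmt5 (-0.57 and -0.30) and Prmt7 (-0.59 and -0.29) were called lower only unadjusted. Setd1b (0.35), Smyd2 (0.32) and Carm1 (0.41) were called higher only GC-adjusted, and Nsd2 (-0.45) and Smyd3 (-0.60) lower. Of the partner lists, Bod1l (0.84, GC-adjusted 0.45) was higher in both fits among 12 H3K4 complex subunits, as were 2 of 10 readers and partners of H3K9. Shmt2 fell by 1.29 on the log2 scale (edgeR adjusted p = 2.24e-05, GC-adjusted -0.68), the 1 of 13 methyl donor genes called in both fits. Mki67, a marker of cycling cells, was higher by 0.94 (edgeR adjusted p = 0.000862, GC-adjusted 0.63), the 1 of 16 genes of S phase and mitosis called in both fits. Unadjusted, 3 of those 16 were called higher and 2 lower. The median of the 16 was 0.09 unadjusted and 0.02 GC-adjusted.

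In isolated cells the surfaces differed at 1 of the 36 genes. The groups did not overlap for 9 of the 36, of which 1 was called unadjusted. The share without overlap over all tested genes was not counted. Kmt2e, 1 of the 9, had 127, 172 and 132 CPM on nanotopography and 242, 203 and 178 CPM on control titanium, with a small gap. Its log2 fold change was -0.53 (SE 0.15, edgeR adjusted p = 0.0365), and GC-adjusted -0.35 (adjusted p = 0.0431), lower on nanotopography. This is 2.78% of the 36, against 3.37% of all tested genes called in both fits (2.2% higher, 1.16% lower). The unadjusted fit called this gene alone, against 9.71% of all tested genes (4.32% higher, 5.39% lower). The GC-adjusted fit called 2, against 5.16% (3.6% higher, 1.57% lower), the other being Nsd2 at 0.54 (adjusted p = 0.00908). Of the partner lists, 1 of 12 H3K4 complex subunits, 1 of 9 partners and readers of H3K79 and H3K36, 1 of 7 PRMT cofactors and other PRMT genes and 2 of 16 genes of S phase and mitosis were higher on nanotopography in both fits, and no gene of any list was lower. The number called in both was 0 without co-culture control replicate 1 or 2, co-culture nanotopography replicate 3, isolated control replicate 1 or 2, or isolated nanotopography replicate 1 or 3, and 2 without isolated nanotopography replicate 2. Unadjusted, the count of 1 was 8 without isolated nanotopography replicate 2, 5 without isolated control replicate 3, 2 without co-culture nanotopography replicate 1 and 0 without isolated control replicate 1 or 2 or isolated nanotopography replicate 1 or 3. The unadjusted share of all tested genes also moved: against 9.71% with all libraries it was 20.9%, 15.6% and 13.8% in the first 3 cases and at most 0.473% where the count was 0. At its weakest, without isolated control replicate 1, Kmt2e was -0.40 (edgeR adjusted p = 0.193), and GC-adjusted -0.27 (adjusted p = 0.221).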

How the data were processed

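RNA was sequenced from 12 libraries in 4 groups of 3, grouped by the sample titles. The deposited values are raw counts per gene, 1 library per file. The submitters' processing notes list the mm10 build and, with no role or order, STAR 2.4, HTSeq, cutadapt, DESeq2 and FastQC 0.63. The annotation release and the strand setting are not given in the sources used here. The file lists end at different genes, so the 52654 genes listed in every file were used, which held at least 99.924% of each file's counts; all matched GENCODE M21.

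Counts were tested with edgeR 4.0.16 in R 4.3.3 (TMM scaling, filterByExpr, 1 mean per group over all 12 libraries, quasi-likelihood test, Benjamini-Hochberg adjustment over 13340 genes, threshold 0.05). The biological coefficient of variation was 12.3%. The GC-adjusted fit added, as offsets, each library's loess trend (span 0.3) with the GC content and log2 length of the longest protein-coding transcript, or of the longest transcript where a gene has no coding one. SE is approximate, the absolute log2 fold change over the root of its F statistic. CPM of single genes is the count per 1000000 counts of the tested genes, with library sizes after TMM scaling. The marker sums are per 1000000 counts of the genes used, before TMM scaling. Alternatives were other scalings and filters, DESeq2 1.42.0, limma-voom (limma 3.58.1), other sets of genes and libraries, the replicate number as a block, and leaving out each library.

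All 36 genes could be named. Those called in both fits come first, with values of every library planned for up to 8 per comparison by smallest p, and of each partner list up to 3 genes with the smallest p. For co-culture on nanotopography the library values of Kmt5a, Kmt5c and Ehmt2 are given outside that rule. The 36 genes and all lists were chosen with earlier results of these data known. The fold changes of each list are given as counts and carry no test of the list.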

Additional observations from a re-analysis of the deposited data

Results flagged for a closer look

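For 22 of the 36 genes the co-culture difference differed between the surfaces by the interaction term of the unadjusted edgeR fit (47.8% of all tested genes were called by it). The values are the log2 fold change on nanotopography minus that on control titanium. They were positive for Kmt2e (1.19), Setd2 (1.17), Suv39h2 (0.98), Ash1l (0.86), Kmt5b (0.82), Kmt2c (0.76), Nsd1 (0.72), Kmt5a (0.68), Nsd3 (0.60), Setd5 (0.51) and Setd7 (0.48). They were negative for Ehmt2 (-1.22), Prmt2 (-1.22), Prmt7 (-0.89), Smyd5 (-0.88), Prmt5 (-0.84), Prmt1 (-0.76), Smyd3 (-0.75), Dot1l (-0.69), Kmt2b (-0.60), Smyd2 (-0.54) and Setd1b (-0.52). All 11 with a positive value had transcripts under 50% GC, and 10 of the 11 with a negative value had 50% GC or more, the exception being Smyd3. GC-adjusted, 7 of the 22 were still called with the same sign: Kmt2c, Kmt2e, Setd2, Setd5, Kmt5a, Kmt5b and Smyd3. Over all tested genes, 6383 were called unadjusted, and 1770 of those were still called with the same sign. The Spearman correlation of GC content with the unadjusted interaction over all tested genes was -0.78.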

How the results depend on the processing

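The GC adjustment reversed the sign of 10 genes called in at least 1 fit for co-culture on nanotopography: Kmt2b (0.10), Setd1a (0.093), Setd1b (0.44), Kmt5c (0.57), Nsd1 (-0.15), Nsd2 (-0.65), Setdb2 (-0.60), Smyd2 (0.40), Prmt1 (0.012) and Carm1 (0.42). Between surfaces in co-culture it reversed Kmt2b (0.041), Setd1b (0.35), Nsd2 (-0.45), Dot1l (0.016), Smyd2 (0.32) and Carm1 (0.41), and for the interaction Kmt2b (0.13), Setd1b (0.23), Kmt5c (0.88), Smyd2 (0.22) and Carm1 (0.44). The count called between surfaces in co-culture was 11 GC-adjusted against 20, and for the interaction 10 against 22. Of all tested genes these were 17.6% against 42%, and 20.5% against 47.8%. In isolated cells the count of 1 was 2 GC-adjusted, with RLE scaling, the stricter filter, DESeq2, or without mitochondrial genes, Gm26917 and Gm42418, and 4 with no low-count filter. The shares of all tested genes were 5.16%, 9.84%, 11.3%, 13%, 10.4% and 8.05% in that order, against 9.71%. With protein-coding genes only, the calls for co-culture on nanotopography were 13 higher and 9 lower (31.9% and 30.7% of all tested), and with upper-quartile scaling those on control titanium were 2 and 2 (8.74% and 11%). The cause of these changes was not tested.

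Leaving out 1 library, the count was 1 to 5 for co-culture on control titanium, 11 to 22 between surfaces in co-culture (GC-adjusted 3 to 14), 0 to 8 between surfaces in isolated cells (GC-adjusted 0 to 3) and, GC-adjusted, 5 to 12 for the interaction. The share of all tested genes called moved too, between 10.6% and 21.7%, 24.1% and 43.3% (GC-adjusted 7.8% and 19.8%), 0.0218% and 20.9% (GC-adjusted 0.735% and 8.45%) and, GC-adjusted, 12.7% and 24.9%, in the same order. Taken over all groups, same-numbered libraries did not deviate together (18 correlations of -0.39 to 0.30, median 0.02), so the numbers were not taken as pairs. Between the co-culture groups the same-numbered correlations were 0.30, 0.13 and 0.08, and those of different numbers -0.24 to 0.11. Between co-culture and isolated cells on nanotopography the same-numbered ones were -0.26, -0.39 and 0.05. With the replicate block the counts were 21, 4, 21, 2 and 22 for co-culture on nanotopography, co-culture on control titanium, the surfaces in co-culture, the surfaces in isolated cells and the interaction, and GC-adjusted 16, 6, 9, 1 and 9. Of the genes called in both fits, 3 were no longer called GC-adjusted with the block: Kmt2a between surfaces in co-culture (0.24, edgeR adjusted p = 0.0639), Kmt2e between surfaces in isolated cells (-0.34, adjusted p = 0.0626) and Kmt2c for the interaction (0.32, adjusted p = 0.0558). Signs of values called under neither setting were not compared.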
